A study of Homo sapiens with 2 samples.

Results

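Transcripts of the lysosome were compared between a UGT8-knockdown clone and parental control cells of MDA-MB-231, a human breast carcinoma line. The set held 39 genes, listed by name for their place in the lysosome, with earlier results of these data known. On the whole array 18244 genes had a usable probe set. Of the 39, 37 had at least 1 probe set annotated to that gene alone, and 35 read past a floor on mean level; AGA and SORT1 were not analysed here. The knockdown arm was 1 array of a clone with stable knockdown of UGT8, the ceramide galactosyltransferase, and the control arm was 1 array of the parental cells, labelled control. Both were grown in the same DMEM medium and lysed in Trizol after the same interval from passage. The sources used here do not say what reagent lowered UGT8 or whether the parental cells carried an empty vector. A clone was set against its parental line, so effects of cloning and of the knockdown cannot be told apart.

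The lysosome is the acidic organelle in which proteins, glycans and lipids are broken down. Its soluble hydrolases are made in the endoplasmic reticulum, tagged with mannose 6-phosphate and carried there by sorting receptors, while a proton-pumping V-type ATPase keeps the lumen acidic and heavily glycosylated membrane proteins line the inside. The transcription factors TFEB and TFE3 bind the sequence known as the CLEAR element in the promoters of many lysosomal genes. Galactosylceramide, the lipid that UGT8 makes, is itself broken down in lysosomes.

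Values are log2 levels of probe sets, and a difference is the knockdown array minus the control array. No test was possible with 1 array per group, no p-value is given, and every difference describes this pair of arrays. As a check of the labels, the 3 probe sets of UGT8 differed by -2.34, -2.27 and -1.68. Across the 10439 genes past the floor (log2 6.64) the median difference was 0.03. Of the 7 markers fixed as present in MDA-MB-231, VIM and CD44 among them, 7 read past the floor. They read 9.39 to 13.89 on the knockdown array and 9.92 to 13.88 on the control array. Their differences ran from -0.53 (EGFR) to 0.08 (SPARC). PGR and ESR1 read below the floor on both arrays, whereas 5 other markers fixed as low or absent read past it. These differed by 0.62 for EPCAM, -0.35 for CDH1, -0.22 for GATA3, 0.06 for FOXA1 and 0.05 for KRT8. Of 9 leukocyte and macrophage markers, 3 read past the floor, CD14 (-0.73), TYROBP (-0.12) and CD68 (0.13). The list averaged 5.66 on the knockdown array and 5.68 on the control array. Its defining marker PTPRC read 3.40 on the knockdown array and 3.56 on the control array. The 5 fibroblast markers averaged 5.75 on the knockdown array and 6.23 on the control array. LUM, the 1 past the floor, differed by -1.34. Below the floor, PDGFRB differed by -0.75, DCN by -0.49, COL1A1 by 0.09 and COL1A2 by 0.11. The 4 endothelial markers, 2 past the floor, averaged 6.22 on the knockdown array and 6.62 on the control array, with PECAM1 at -1.09. The 3' minus 5' signal difference of ACTB, a gauge of RNA quality, was 0.90 on the knockdown array and 0.49 on the control array, and that of GAPDH was 0.19 on the knockdown array and 0.18 on the control array; the part of these markers and signals in the differences was not tested. Spike-in RNAs of the hybridisation step, read by 18 probe sets, had a median difference of 0.51. If that shift is subtracted, the median of all genes becomes -0.48, so directions below are relative to the typical gene of the deposited scale.

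Among the members, most hydrolase transcripts were lower in the knockdown clone, while membrane proteins, read by their brightest probe sets, lay nearer the typical gene. The hydrolases were pooled after their values were seen. Several subunits of the proton pump were higher on the deposited scale. When centred on the hybridisation controls, of the members only ATP6V0D1 stayed above 0, and by no more than 0.0055. When centred on the poly-A controls, another set of spike-in RNAs, 27 of the 35 members lay below 0. The pump members then ran from -0.35 (ATP6V0A1) to 0.45 (ATP6V0D1). Over the 35 measured members the median difference was -0.27, against 0.03 for all genes past the floor, and 26 of the 35 lay below 0, where 45.8% of all genes did. At a 1.5-fold difference, 6 members were lower, 17.1% of the 35 against a background of 6.74% of all genes, and 0 were higher against a background of 4.96%. The 6 were the proteases TPP1, CTSD and LGMN and the glycosidases NAGLU, MAN2B1 and MANBA, each a hydrolase. Averaging the probe sets of each gene past the floor gave 5 members instead, against 6.27% of all genes. TPP1 (-0.47) and CTSD (-0.58) then fell short of 1.5-fold, and the membrane protein LAMP2 (-0.72) passed it. At the milder difference of 1.2-fold, 19 members were lower and 5 were higher, against 19.7% and 23.0% of all genes. None of the 35 differed by 2-fold when read by its brightest probe set.

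By role, the 18 measured hydrolases had a median of -0.30 with 16 below 0, and the 17 other members had a median of -0.09 with 10 below 0. Centring on the hybridisation controls gave medians of -0.81 for the hydrolases and -0.60 for the other members. So centred, 34 of the 35 members lay below 0, as did 92.9% of all genes, whose median was then -0.48. Repeat probe sets of a member lay on 1 side of 0 in 18 of the 24 members with 2 or more past the floor. The exceptions were ATP6V0A1, ATP6V1A, CD63, CLN3, IDS and SCARB2. The matching share of all genes was not counted, so whether 18 of 24 is a high share cannot be told. By spread, members agreed less well than genes in general. The median SD between repeat probe sets was 0.1108 for members, against 0.0832 for the 6067 genes read by several.

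**Figure D1:**
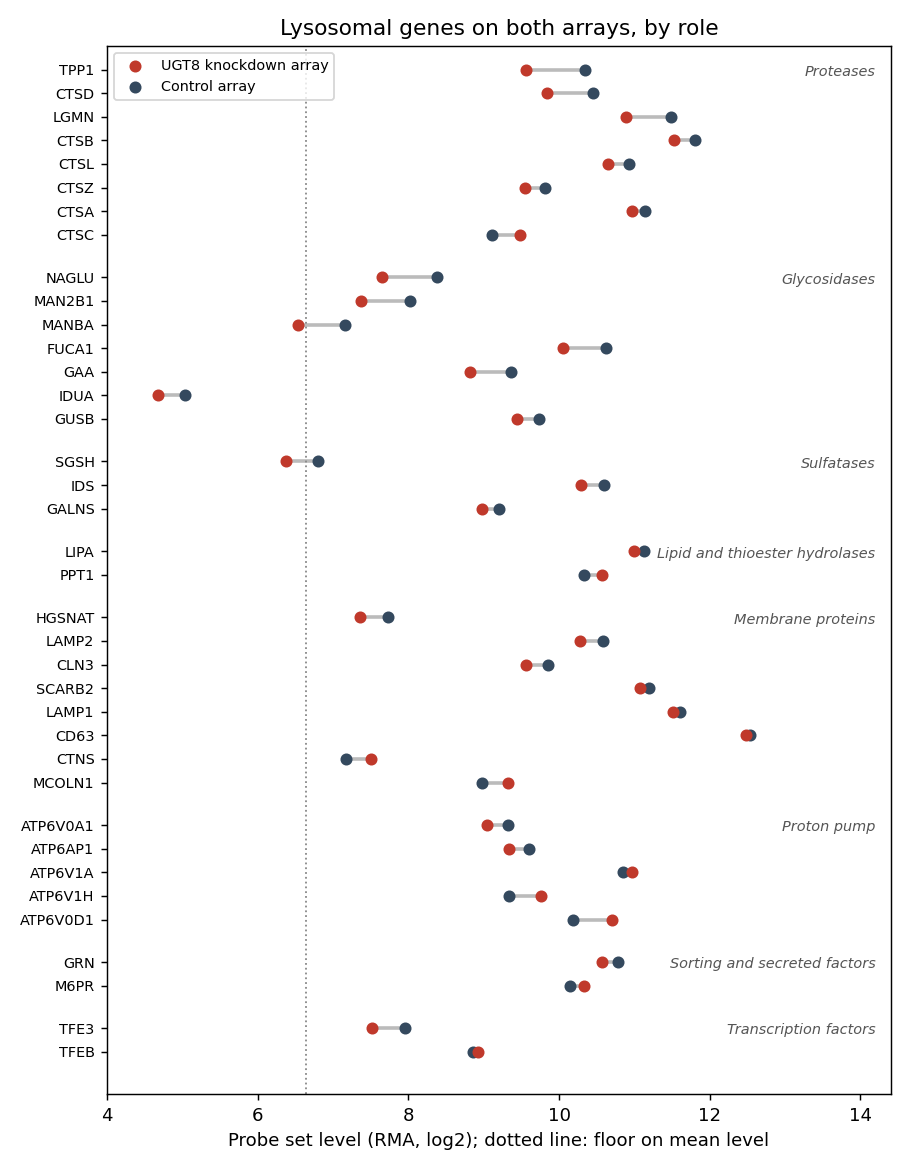
Log2 level of each measured lysosomal gene (x axis) on the UGT8 knockdown array (red) and the control array (dark blue), 1 row per gene grouped by role, with no error bars because each group is 1 array. Red lies left of blue in 16 of the 18 hydrolases past the floor (dotted line at 6.64). On the deposited scale red lies right of blue in ATP6V0D1, ATP6V1H and ATP6V1A of the proton pump. Of these only ATP6V0D1 stayed above 0 (0.0055) when centred on the hybridisation controls.

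**Figure D2:**
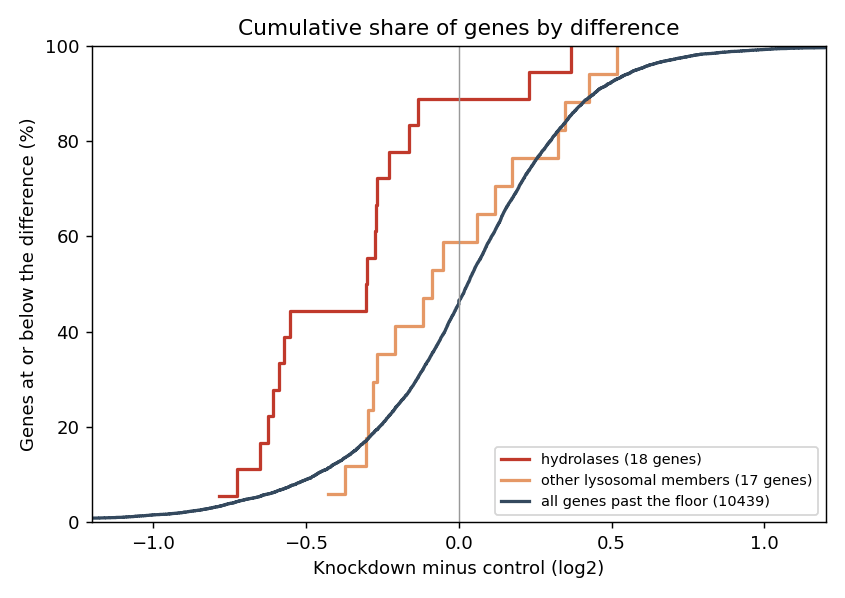
Cumulative share of genes (y axis, percent) at or below each log2 difference, knockdown minus control (x axis), for 18 lysosomal hydrolases, 17 other lysosomal members and all 10439 genes past the floor. The hydrolase curve lies left of the curve for all genes, with a median of -0.30 against 0.03. Of the other members, 58.8% lie below 0 against 45.8% of all genes. The hydrolases were pooled after their values were seen.

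Among the proteases, 7 of 8 were lower on the knockdown array and the median difference was -0.27. TPP1, which cuts tripeptides from the ends of proteins and whose loss causes a form of Batten disease, read 9.56 on the knockdown array and 10.35 on the control array. That difference of -0.78, or 1.72-fold lower, was the largest of any member read by its brightest probe set. Its 4 probe sets past the floor ranged from -0.78 to -0.13, and all 9 of its probe sets averaged -0.33, so its size depends on the probe set. CTSD, the major aspartic protease of the lysosome, read 9.84 on the knockdown array against 10.44 on the control array (-0.61, 1.52-fold lower). Its 3 probe sets lay between -0.61 and -0.54. LGMN, the asparaginyl endopeptidase that cleaves cathepsins into their mature forms, read 10.89 in the clone against 11.48 in parental cells (-0.59, just past 1.5-fold lower). All 6 LGMN probe sets were lower, from -0.67 to -0.54, though those of 1 gene can share probes and are not independent readings. CTSD and LGMN thus kept differences of this size across their probe sets, whereas TPP1 did not.

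Read by their brightest probe sets, the remaining cathepsins differed less. The cysteine protease CTSB read 11.53 on the knockdown array and 11.80 on the control array (-0.27), and its 4 probe sets reached -0.46 and averaged -0.35. CTSL, another cysteine protease with broad specificity, read 10.65 in the clone and 10.93 in parental cells (-0.27). CTSZ, a carboxypeptidase, read 9.55 in the clone and 9.82 in parental cells (-0.27). CTSA, the protective protein that holds sialidase and beta-galactosidase in a complex, read 10.97 in the clone and 11.14 in parental cells (-0.16). The exception was CTSC, the dipeptidyl peptidase that activates serine proteases of immune cells, which was higher at 9.48 in the clone against 9.11 in parental cells (0.37). Both of its probe sets past the floor were higher, by 0.33 and 0.37.

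Glycosidases were the lowest group of members, with 6 of 6 measured genes below 0 and a median of -0.60. They remove sugars from the ends of glycan chains, each for its own linkage. NAGLU, which removes N-acetylglucosamine from heparan sulfate, read 7.65 on the knockdown array and 8.38 on the control array (-0.73, 1.65-fold lower). MAN2B1, the lysosomal alpha-mannosidase of glycoprotein breakdown, read 7.36 in the clone and 8.02 in parental cells (-0.65, 1.57-fold lower). MANBA, the beta-mannosidase that acts at the end of the same route, read 6.53 in the clone and 7.15 in parental cells (-0.63, 1.54-fold lower). The knockdown reading of MANBA lay below the floor, and its dimmer probe set read 5.58 in the clone and 6.46 in parental cells (-0.88). FUCA1, which removes fucose, read 10.05 on the knockdown array against 10.62 on the control array (-0.57). Its 3 probe sets lay between -0.57 and -0.50, just short of 1.5-fold (0.585 on the log2 scale). GAA, the acid alpha-glucosidase that degrades glycogen, read 8.81 in the clone against 9.37 in parental cells (-0.55). GUSB, the beta-glucuronidase often used as a reference transcript in quantitative PCR, read 9.44 in the clone against 9.74 in parental cells (-0.30). IDUA, which removes iduronic acid, lay below the floor on both arrays (4.68 in the clone and 5.03 in parental cells). The group was thus lower as a whole and not through 1 gene.

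The sulfatases, which strip sulfate from glycosaminoglycans, were lower by smaller amounts. IDS, the iduronate sulfatase, read 10.29 on the knockdown array and 10.60 on the control array (-0.30). Its 5 probe sets past the floor disagreed, from -0.62 to 0.24. GALNS, which removes sulfate from galactosamine and galactose, read 8.98 in the clone and 9.21 in parental cells (-0.23). SGSH, the heparan sulfamidase, read 6.38 in the clone and 6.80 in parental cells (-0.43), just under the floor on mean level, and was left out of the counts. The 2 hydrolases of lipids and thioesters went apart from each other. LIPA, the acid lipase that frees cholesterol from lipoprotein esters, read 10.99 on the knockdown array and 11.12 on the control array (-0.13). PPT1, which removes palmitate from proteins, was higher at 10.57 in the clone against 10.33 in parental cells (0.23), and all 6 of its probe sets were higher, by 0.23 to 0.40.

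**Figure D3:**
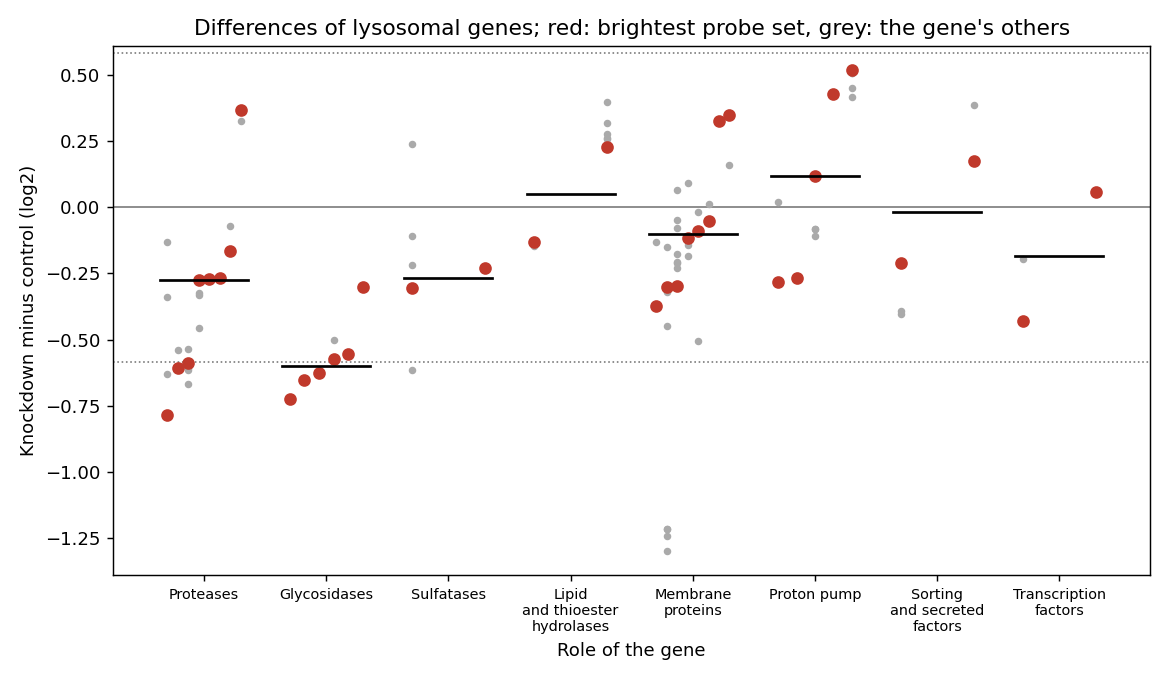
Log2 difference, knockdown minus control (y axis), of the 35 measured members by role (x axis). Red points are the brightest probe set of each gene, grey points its other probe sets past the floor, black bars group medians and dotted lines 1.5-fold. Glycosidases lie lowest (median -0.60), and the grey points of the membrane proteins at -1.30 to -1.22 belong to LAMP2.

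Membrane proteins had a median of -0.10, with 6 of 8 below 0 and none at 1.5-fold. LAMP1, an abundant glycoprotein of the lysosomal membrane, read 11.52 on the knockdown array and 11.61 on the control array (-0.09). The tetraspanin CD63 read 12.48 in the clone and 12.53 in parental cells (-0.05). SCARB2, an integral glycoprotein of the lysosomal membrane, read 11.08 in the clone and 11.19 in parental cells (-0.12). These 3, common markers of the lysosomal membrane, had the smallest differences of the group by brightest probe set, but a dimmer LAMP1 probe set past the floor differed by -0.50 and the 3 of LAMP1 averaged -0.20. HGSNAT, the membrane enzyme that acetylates heparan sulfate so that NAGLU can act on it, read 7.35 in the clone and 7.72 in parental cells (-0.37). CLN3, the membrane protein mutated in juvenile Batten disease, read 9.56 in the clone and 9.86 in parental cells (-0.30), with 8 probe sets from -0.30 to 0.07. The cation channel MCOLN1, which releases calcium from lysosomes, was higher at 9.32 in the clone against 8.97 in parental cells (0.35). CTNS, the cystine exporter, was also higher at 7.50 in the clone against 7.17 in parental cells (0.33), but its other 7 probe sets lay below the floor and all 8 averaged 0.04.

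LAMP2 stood apart because its probe sets fell at separate sizes of difference. LAMP2 is made as splice forms that share the luminal domain and differ in the membrane span and tail, and the form with the A tail serves chaperone-mediated autophagy. The brightest of its 9 probe sets read 10.28 on the knockdown array and 10.58 on the control array (-0.30), and 5 of the 9 lay between -0.45 and -0.15. The other 4 were 2.32-fold to 2.46-fold lower, between -1.30 and -1.22. Over all members, 100 probe sets lay past the floor. Of these, 17 were at least 1.5-fold lower against a background of 7.07% of all probe sets, and 0 were higher against 4.64%. The 17 belonged to CTSD, IDS, LAMP2, LGMN, MAN2B1, MANBA, NAGLU and TPP1, with several each from LGMN and LAMP2. Probe sets of 1 gene can share probes, so the 17 are not independent readings. At least 2-fold lower were 4 of the 100, all of LAMP2, against 1.65% of all probe sets. The SD over all 9 probe sets was 0.50, and an SD as large was found in 1.15% of the 6067 genes read by several probe sets past the floor. The platform annotation pairs 2 of the 4 with the RefSeq entry of transcript variant C, and pairs the brightest probe set with that of variant B. The IDs of the 4 mark them as matching several transcripts, and which splice forms they read was not tested. Averaged over its probe sets, LAMP2 differed by -0.72, behind MANBA (-0.75) and NAGLU (-0.73) under that choice.

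**Figure D4:**
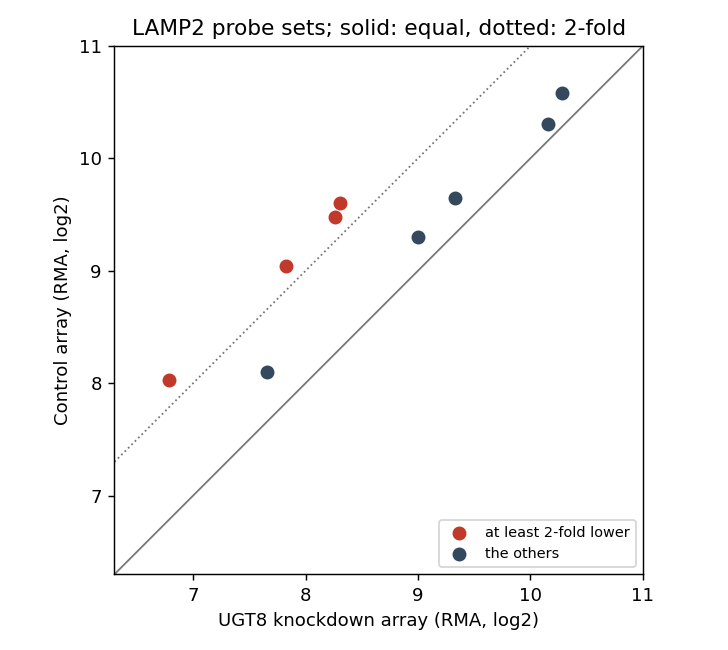
Log2 level of each of the 9 LAMP2 probe sets on the knockdown array (x axis) and the control array (y axis). The solid line marks equal levels and the dotted line a 2-fold lower level in the knockdown clone. The 4 red probe sets lie beyond the 2-fold line, at -1.30 to -1.22, and the 5 dark ones lie between the lines, at -0.45 to -0.15.

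The proton pump did not follow the hydrolases. Of its 5 members, 3 were higher and 2 lower, and the median difference was 0.12 on the deposited scale, -0.39 when centred on the hybridisation controls and -0.0079 when the probe sets of each gene were averaged. ATP6V0D1, a subunit of the membrane sector V0 that joins it to the central stalk, read 10.70 on the knockdown array and 10.19 on the control array (0.52, 1.43-fold higher). Its 6 probe sets past the floor were higher by 0.42 to 0.52. ATP6V1H, a regulatory subunit of the catalytic sector V1, read 9.76 in the clone and 9.33 in parental cells (0.43). ATP6V1A, the subunit that hydrolyses ATP, read 10.97 in the clone and 10.85 in parental cells (0.12), with 5 probe sets from -0.11 to 0.12 on either side of 0. ATP6V0A1, an isoform of the subunit that helps to place the pump, read 9.04 in the clone against 9.32 in parental cells (-0.28), and its second probe set differed by 0.02. The accessory subunit ATP6AP1, which takes part in pump assembly, read 9.34 in the clone against 9.60 in parental cells (-0.27).

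Pump genes outside the 39 were read by sector as well. With members and other subunits together, 19 pump genes read past the floor. On the deposited scale 14 of them lay above 0, with a median of 0.19. Centred on the hybridisation controls, 2 lay above 0, where 92.9% of all genes lay below it. All 8 measured V1 genes were higher on the deposited scale (0.05 to 0.48, median 0.34) and 0 of 8 when centred on those controls, among them the stalk subunit genes ATP6V1F (0.48), ATP6V1D (0.46) and ATP6V1G1 (0.38). Of 9 V0 genes, 6 were higher on the deposited scale and 3 were lower, the lower ones being ATP6V0A1, ATP6V0D2 (-0.24) and TCIRG1 (-0.21). The 2 that stayed above 0 when so centred, ATP6V0D1 and ATP6V0E2, each differed by 0.52, just past the controls' median of 0.51. Both accessory genes were lower, ATP6AP2 at -0.25. None of the 19 reached 1.5-fold. Centred on the hybridisation controls, the V1 median was -0.17, so the direction of the sector depends on the centring. The poly-A controls, another set of spike-in RNAs read by 27 probe sets, had a median difference of 0.07. Centred on them, the 5 pump members had a median of 0.05.

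**Figure D5:**
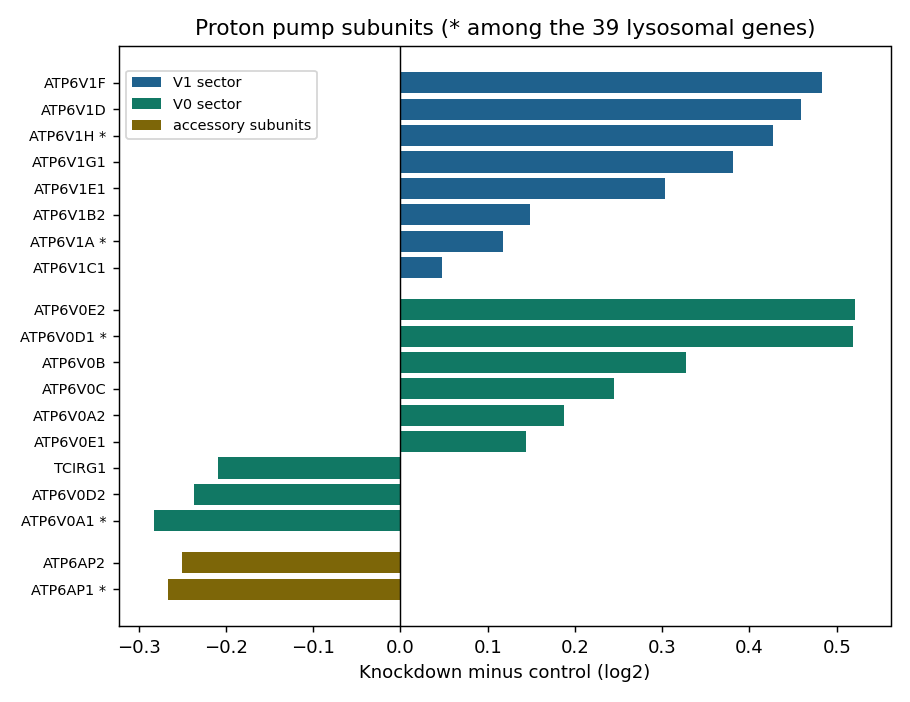
Log2 difference, knockdown minus control (x axis), of the 19 V-type ATPase genes past the floor (rows), by sector, each bar 1 probe set on 1 pair of arrays. The 8 V1 bars lie between 0.05 and 0.48 on the deposited scale (0 of 8 above 0 when centred on the hybridisation controls), whereas ATP6V0A1, ATP6V0D2, TCIRG1 and both accessory subunits lie left of 0.

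Sorting receptors and transcription factors showed no common direction. M6PR, the cation-dependent mannose 6-phosphate receptor, read 10.32 on the knockdown array and 10.15 on the control array (0.18), and its second probe set was higher by 0.39. GRN, which encodes progranulin, a secreted protein that is cut into granulins in lysosomes, read 10.57 in the clone and 10.78 in parental cells (-0.21), with 3 probe sets from -0.40 to -0.21. TFEB, the factor best known for driving lysosomal genes, read 8.92 in the clone and 8.86 in parental cells (0.06). Its relative TFE3 read 7.52 in the clone and 7.95 in parental cells (-0.43), and its second probe set differed by -0.20. These are transcript levels, and both factors are known to be controlled mainly by where in the cell they are held.

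Promoters were searched because TFEB and TFE3 bind the CLEAR element, which is built around the E-box CACGTG. RefSeq promoter windows (GRCh38.p14), of which the 250 bases before each start were read, were found for 30 of the 39 members, not for NAGLU, LGMN and LAMP2 among others. The palindrome TCACGTGA, read the same on both strands, lay in 6 of the 30 (20.0%), against 1.04% of 27305 genes with a window and 2.23% of the 8688 of them past the floor, and in 8 of 99 other lysosomal genes (8.08%). The shorter CACGTG, which the longer motif contains, lay in 10 of the 30 (33.3%) against 7.73% and 11.7%, and in 23 of the 99 (23.2%). The 6 with the longer motif were ATP6V0D1, CTSA, GAA, GALNS, LAMP1 and MCOLN1. Their median difference was -0.13 with 4 of 6 below 0, and the 21 measured members with a window lacking it had a median of -0.27 with 16 below 0. The 4 printed below were chosen because they carry the same letters and lie on both sides of 0: GAA (-0.55) and GALNS (-0.23) were lower in the clone, and MCOLN1 (0.35) and ATP6V0D1 (0.52) were higher. GAA is at chr17:80101331-80101580 on the plus strand, GALNS at chr16:88856948-88857197 on the minus strand, MCOLN1 at chr19:7522374-7522623 on the plus strand and ATP6V0D1 at chr16:67481158-67481407 on the minus strand, each ending at the base before the start of the transcript, written 5′ to 3′ on the gene's strand with TCACGTGA in capitals.
GAA: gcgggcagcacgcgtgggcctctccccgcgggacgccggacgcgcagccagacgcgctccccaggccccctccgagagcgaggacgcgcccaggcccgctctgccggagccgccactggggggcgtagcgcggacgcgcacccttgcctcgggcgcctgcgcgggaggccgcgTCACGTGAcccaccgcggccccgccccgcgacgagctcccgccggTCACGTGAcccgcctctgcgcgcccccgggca
GALNS: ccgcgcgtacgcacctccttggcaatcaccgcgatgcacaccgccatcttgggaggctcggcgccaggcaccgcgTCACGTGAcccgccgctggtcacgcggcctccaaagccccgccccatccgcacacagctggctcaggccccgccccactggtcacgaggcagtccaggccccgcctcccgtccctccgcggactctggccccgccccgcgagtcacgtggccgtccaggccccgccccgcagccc
MCOLN1: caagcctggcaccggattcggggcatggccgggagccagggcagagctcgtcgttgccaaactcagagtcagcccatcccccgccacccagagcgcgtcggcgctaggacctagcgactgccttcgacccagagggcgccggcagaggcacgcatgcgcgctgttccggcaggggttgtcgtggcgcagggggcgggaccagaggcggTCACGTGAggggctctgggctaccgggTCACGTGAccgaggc
ATP6V0D1: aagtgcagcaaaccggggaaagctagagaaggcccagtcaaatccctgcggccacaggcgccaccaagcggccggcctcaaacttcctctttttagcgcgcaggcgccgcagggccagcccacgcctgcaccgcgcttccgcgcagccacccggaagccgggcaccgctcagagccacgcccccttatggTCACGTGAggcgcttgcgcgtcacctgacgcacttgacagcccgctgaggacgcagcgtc
GAA carries the motif 77 and 32 bases before its start and MCOLN1 42 and 15 bases before it, while GALNS has it at 175 bases and ATP6V0D1 at 60. A match is a description of the letters and no evidence of binding. The CLEAR element is known from promoters of lysosomal genes, so its share among the members is no finding of these arrays.

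Lysosomal genes outside the 39 were read for comparison, from 129 genes listed by function. Of these, 110 read past the floor with a median of 0.05. Read by their brightest probe sets, 6 were at least 1.5-fold lower (5.45% against 6.74% of all genes) and 0 were higher (against 4.96%). The 6 fell in 2 of the lists, 3 of 25 other hydrolases and activators (12.0%) and 3 of 16 other membrane proteins (18.8%). The 25 hydrolases and activators had a median of -0.21, with 15 below 0. Those at least 1.5-fold lower were the cathepsin gene CTSO (-0.84), whose knockdown reading of 6.40 lay below the floor, the sialic acid esterase gene SIAE (-0.79) and GALC (-0.70), the enzyme that breaks down galactosylceramide. GALC read 8.49 on the knockdown array and 9.20 on the control array. Other genes of sphingolipid breakdown set in advance differed less, with the activator precursor PSAP at 12.89 in the clone and 13.10 in parental cells (-0.21), the sphingomyelinase SMPD1 at 8.65 on both (0.00) and the sulfatide-degrading ARSA below the floor (6.21 in the clone and 6.20 in parental cells). Named after their values were seen, the hexosaminidase subunit gene HEXA differed by -0.54 and the ganglioside activator gene GM2A by 0.46. The ceramidase gene ASAH1, so named as well, differed by -0.45 with 4 probe sets past the floor from -0.49 to -0.43. Also so named, GLB1 differed by -0.18 and GLA by 0.13. The 3 probe sets of GLA past the floor ran from 0.11 to 1.01. The 16 other membrane proteins had a median of -0.02 with 8 below 0, and their 3 at least 1.5-fold lower were NPC1, TPCN1 and LMBRD1. The cholesterol exporter NPC1 read 10.34 on the knockdown array and 11.52 on the control array (-1.18). The cation channel TPCN1 differed by -1.02, with 3 probe sets past the floor from -1.05 to -0.35. LMBRD1, needed for export of vitamin B12, was read by 1 probe set and differed by -0.69. The 16 genes of mannose 6-phosphate tagging and sorting had a median of 0.13 with 5 below 0 and none at 1.5-fold, on the deposited scale, and -0.38 when centred on the hybridisation controls. Within that list the large mannose 6-phosphate receptor IGF2R was lower, at 10.66 in the clone against 11.05 in parental cells (-0.39), opposite to M6PR.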

How the data were processed

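The deposited table holds 1 log2 value per probe set and array, computed by the authors with RMA, per the submitters' processing notes. RMA corrects background, normalizes between arrays and summarises probes, so a shift common to most transcripts is removed. No source used here names its software, version or genome build. The platform annotation gave 1 gene symbol to 45278 of the 49495 probe sets, several to 1333 and none to 2782, and 102 were controls. Symbols were updated through RefSeq, where 18201 of 18244 were found (99.8%).

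A gene was read by its brightest probe set of 1 symbol, past a floor at the median mean level. Group labels came from the genotype field. With 1 array per group nothing was tested; genes were counted at 1.5-fold. The members, role groups and lists were chosen with earlier results of these data known. Values are given for every member, and for other lysosomal genes at least 1.5-fold apart (up to 4 per list) or set in advance (NPC1, GALC, ARSA, SMPD1, PSAP, IGF2R, MITF and SQSTM1; 1 further gene is not reported here). Pump subunits, the autophagy and nutrient-sensing genes named and the markers named were picked after their values were seen, as was the pooling of hydrolases. Alternatives changed 1 choice at a time: the floor, the probe set, the fold and the centring. The arithmetic was checked on simulated arrays into which 2-fold differences were put, with python 3.11.15, pandas 2.3.3 and statsmodels 0.14.6. That check does not bear on how reliable the counts from the measured arrays are. The number of arrays limits the precision.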

Additional observations from a re-analysis of the deposited data

How the results depend on the processing

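No paired analysis was possible because each group holds 1 array, and no array could be left out. Across floors, probe set choices and centring, the member median stayed below 0. Centring on the median, by loess or on the poly-A controls, no floor and the floor at the 25th percentile moved no count by over 1.5 times and no median by more than 0.0832, the typical SD between probe sets of 1 gene. With the floor at the 75th percentile 3 of 29 members were at least 1.5-fold lower, against 6.68% of all genes. Counting probe sets singly gave 17 of 100, against 7.07% of all probe sets, and a protease median of -0.46. Several of the 17 came from the same gene, so they are not independent readings. Without _s_at, _x_at and _a_at probe sets 7 members were left, 1 of them 1.5-fold lower, against 9.01% of all genes. The membrane protein median was then -0.30 over 3 genes. The pump was read by 1 gene alone, ATP6V1A (-0.081). Averaging all probe sets of a gene, or those past the floor, gave a pump median of -0.0079. Centred on the hybridisation controls, 25 of the 35 members were 1.5-fold lower, against 37.1% of all genes. The medians were then -0.78 for members and -0.46 for other lysosomal genes. By role they were -0.79 for proteases, -1.11 for glycosidases, -0.61 for membrane proteins and -0.39 for the pump. All genes then had 3868 lower and 50 higher, against 704 lower and 518 higher on the deposited scale. At 1.2-fold 19 members were lower and 5 higher, and at 2-fold 0 were lower. Averaging all probe sets moved 15 of the 35 members by more than that SD. IDUA and SGSH read below the floor and were left out of the counts.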

Other observations

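Autophagy and nutrient-sensing genes, which work with the lysosome, lay near the typical gene. The 23 measured autophagy genes had a median of -0.06, with 13 below 0 and none at 1.5-fold. WIPI1, which binds phosphoinositide on forming autophagosomes, read 10.21 on the knockdown array and 10.75 on the control array (-0.55), and both of its probe sets were lower. The kinase gene ULK1, which starts autophagy, differed by -0.49 and GABARAPL1, a tag of autophagosome membranes, by -0.49. In the other direction ATG16L1, which guides that tagging, differed by 0.47 and VPS18, a subunit of the tethering complex for fusion with lysosomes, by 0.39. The cargo receptor SQSTM1 read 12.19 in the clone and 12.31 in parental cells (-0.13).

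The 16 measured genes of mTORC1, Ragulator and their regulators had a median of 0.07 on the deposited scale, with 12 above 0 and none at 1.5-fold, and -0.44 when centred on the hybridisation controls. RPTOR, the scaffold that recruits mTORC1 substrates, read 8.53 on the knockdown array and 7.97 on the control array (0.57). FLCN, which acts on the Rag GTPases, read 7.54 in the clone and 7.12 in parental cells (0.42). MITF, of the same factor family as TFEB and TFE3, read 8.81 in the clone and 8.50 in parental cells (0.31), and TFEC lay below the floor on both arrays.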
